A study of Caenorhabditis elegans with 4 samples.

Results

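The regions described are the JUN-1 binding sites on chromosome IV of Caenorhabditis elegans, 634 of the 3467 peaks in the combined peak list of the study. They were chosen by chromosome alone, so no measured value decided which peaks belong. JUN-1 was mapped by ChIP-seq in 2 ChIP samples, each with an input sample of total chromatin, from hermaphrodites at the third larval stage (L3) raised at 20 °C. The strain, OP234, carries the unc119(ed3) allele and the bombarded transgene wgIs234, in which T24H10.7 (jun-1) bears TY1, EGFP and FLAG tags and an unc119 rescue marker travels along. All samples share this genotype, an untagged control strain is not among them, and a goat antibody against GFP collected the tagged protein. Chromatin came from whole worms, so a site bound in few cells and a site bound weakly in many cannot be told apart. The values are the 2 peak lists of the ChIP replicates and the combined list, with positions in WormBase WS180 and a q-value for each peak from the authors' peak caller. The strength of a peak is given here as −log10 q, which is larger for a smaller q-value, and the depth behind it is unknown. Replicate 1 held 918 peaks, 189 of them on IV, and replicate 2 held 3472, of which 634 were on IV.

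JUN-1 is a basic leucine zipper protein of the Jun family. Such factors bind DNA as dimers, either with themselves or with Fos-type partners, and the Jun and Fos pair is the classical AP-1 complex, which in many animals acts downstream of stress kinases. The autosomes of this worm have a central region, rich in conserved and widely expressed genes and poor in recombination, between arms that recombine more and hold more repeats and fast-evolving gene families. Chromosome IV is also the home of most 21U-RNA genes, which encode the piRNAs of the worm germline and lie in 2 broad regions of the chromosome.

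The replicate 2 list and the combined list are nearly the same on IV. Of the 634 combined peaks, 596 (94.0%) had the same start, end and q-value as a peak of replicate 2, against 89.1% over the whole list. The 38 peaks that differed were all of the peaks between 14 and 15 Mb (26 peaks) and between 16 and 17 Mb (12 peaks). In these stretches 1 combined peak overlapped no replicate 2 peak, and 1 replicate 2 peak overlapped no combined peak. Elsewhere on IV a combined value is therefore also the replicate 2 value, and replicate 1 is the only list that is not largely a copy of the combined one.

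Chromosome IV carried 36.3 peaks per Mb in the combined list and 10.8 per Mb in replicate 1, counted over the 17472392 bases from its first base to its last peak. It held 18.3% of the combined peaks (95% Wilson interval 17 to 19.6%) and 20.6% of the replicate 1 peaks (18.1 to 23.3%) on 17.5% of the covered span. Its combined density lay below those of I (46.2 per Mb) and III (39.9) and above those of V (29.1) and II (27). In replicate 1 it was second to III, which had 12 per Mb, and above V (7.89), I (7.16) and II (6.75). The peaks of IV covered 336 kb, or 1.92% of the chromosome. Intervals cover counting error only and treat peaks as independent, which close neighbours are not. Set against the 4 other autosomes, 1 chromosome cannot reach an exact permutation p below 0.2, so the autosomes are set side by side without a test and nothing is called particular to IV.

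**Figure D1:**
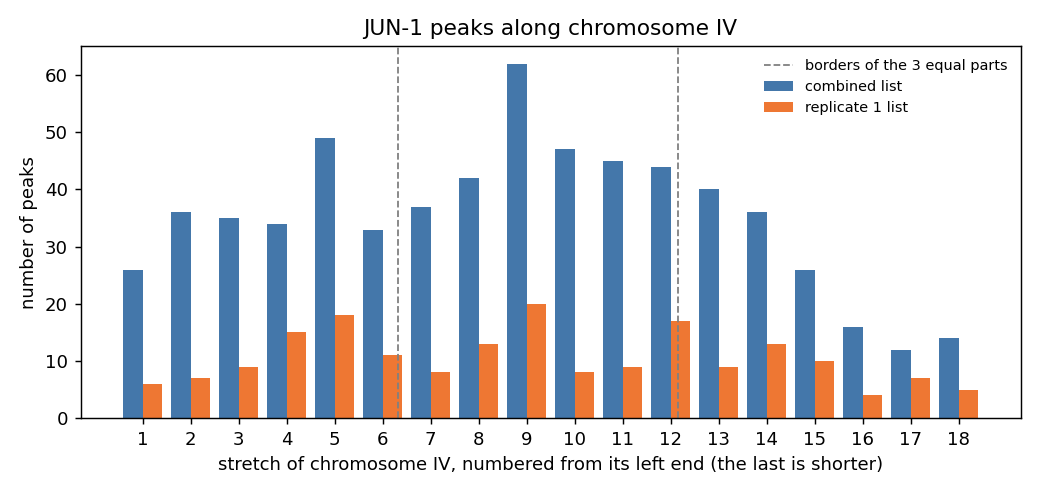
Number of peaks (vertical axis) in successive stretches of 1 Mb from the left end of chromosome IV (horizontal axis), with a blue bar for the combined list and an orange bar for replicate 1. The last stretch is 0.472 Mb long, and dashed lines divide the span into 3 equal parts. The combined bars peak at 62 in the ninth stretch and fall to 12 in the seventeenth.

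Along the chromosome the combined peaks were most frequent near the centre and sparsest towards the right end. The 17 whole stretches of 1 Mb held between 12 and 62 combined peaks, with a median of 36. The fullest lay between 8 and 9 Mb with 62 peaks, followed by 4 to 5 Mb with 49 and 9 to 10 Mb with 47. The emptiest was 16 to 17 Mb with 12 peaks, then 15 to 16 Mb with 16, and the first and the fifteenth stretch had 26 each. From 9 Mb on, no stretch held more peaks than the one to its left until the shortened last one, in which 14 peaks in 0.472 Mb came to 29.6 per Mb.

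Replicate 1 followed this course in part. It had its most peaks, 20, in the same stretch between 8 and 9 Mb and 18 between 4 and 5 Mb, the second fullest in the combined list. Between 9 and 10 Mb, however, it had 8 peaks against 47 in the combined list, and between 16 and 17 Mb it had 7 against 12. The stretches from 0 to 3 Mb held 6, 7 and 9 replicate 1 peaks and those from 14 to 17 Mb 10, 4 and 7. In this list the left end was therefore sparse as well. Between 11 and 12 Mb it had 17 peaks. Over the 17 stretches the counts of both lists had a Spearman coefficient of 0.56 and a Pearson coefficient of 0.70, a description of stretches that share a genome and an experiment.

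With the span cut into 3 parts of equal length, the left part (1 to 5824131) held 212 peaks, the central part (5824132 to 11648261) 269 and the right part (11648262 to 17472392) 153. The central share was 42.4% (Wilson interval 38.6 to 46.3%), where all chromosomes together had 42.3% of their peaks in the centre. The left share was 33.4% (29.9 to 37.2%) and the right share 24.1% (21 to 27.6%), with a background of 29.9% in the right part. On the other chromosomes the left share was 27.9% on I, 19.7% on II, 30.2% on III, 25.1% on V and 27.8% on X. In peaks per Mb this was 36.4 on the left, 46.2 in the centre and 26.3 on the right, so the left part was 1.39 times as dense as the right.

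A left part denser than the right was not seen on the other autosomes. On IV the left density, 36.4 per Mb, was near the 36.3 of the whole chromosome, and the right part lay below both. The ratio of left to right density was 0.99 on I, 0.59 on II, 0.93 on III and 0.92 on V. In replicate 1 the ratio on IV was 1.20, and the others ranged from 0.46 on II to 0.96 on I. Replicate 1 gave shares of 34.4% (28.0 to 41.4%) on the left, 37.0% (30.5 to 44.1%) in the centre and 28.6% (22.6 to 35.4%) on the right of IV. These 3 intervals overlap and no test was run, so a difference between the parts of IV was not established in that list. The order left over right was kept.

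**Figure D2:**
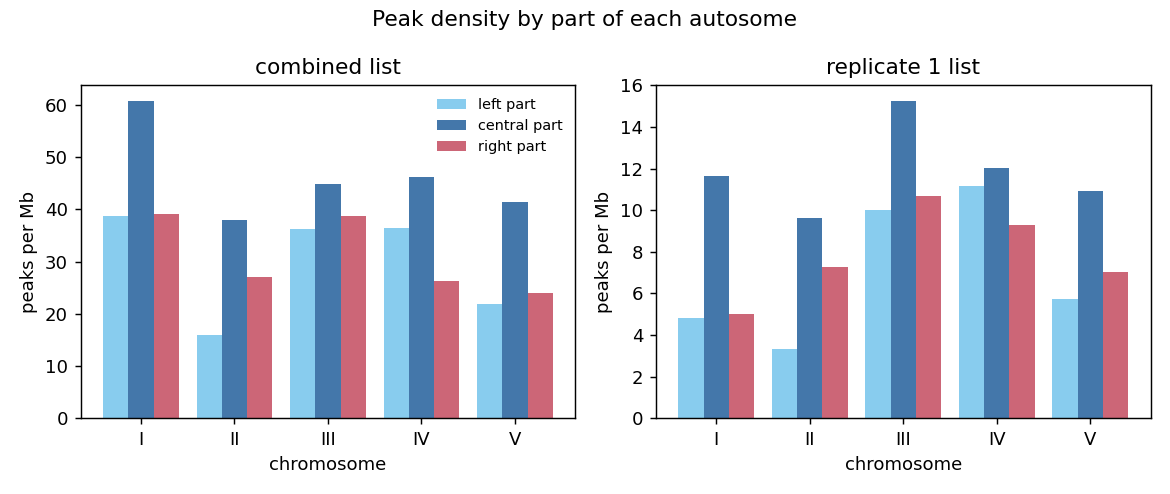
Peaks per Mb (vertical axes) in the left, central and right part of the 5 autosomes (horizontal axes), for the combined list in the left panel and replicate 1 in the right panel. Bars are densities without an error. IV is the autosome whose left bar stands above its right bar, at 36.4 against 26.3 per Mb in the combined list and 11.2 against 9.27 in replicate 1.

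The centre of IV also stood out less from its arms than the centres of I, II and V. Its density was 1.47 times the mean of the outer parts, a ratio that was 1.20 on III, 1.56 on I, 1.76 on II and 1.81 on V. In replicate 1 the value for IV was 1.18, the lowest of the 5 autosomes, which otherwise ranged from 1.47 on III to 2.37 on I. Gene content, which differs between arms and centres, was not allowed for.

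The sparse stretches at the right end differed in their peaks. The 12 peaks between 16 and 17 Mb had a median −log10 q of 12.3 and a median width of 723 bp, against 6.21 and 406.5 bp for all of IV. Replicate 1 overlapped 7 of the 12 (58.3%), the highest share of any whole stretch, where the lowest was 17% between 9 and 10 Mb and the share over all combined peaks of the genome was 25.7%. The 16 peaks between 15 and 16 Mb had a median −log10 q of 7.31, a median width of 376 bp and 25% overlap. The stretch between 16 and 17 Mb is one where the combined list departs from replicate 2, and the replicate 2 list itself had 13 peaks there with a median −log10 q of 10.8, of which 7 were overlapped by replicate 1. By part, the median −log10 q was 6.23 on the left, 6.01 in the centre and 6.65 on the right. Replicate 1 overlapped 29.2% of the left peaks (23.5 to 35.7%), 25.7% of the central peaks (20.8 to 31.2%) and 34.0% of the right peaks (27 to 41.8%), and these intervals overlap.

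The 2 broad regions known for 21U-RNA genes were set against the rest of the chromosome, with borders rounded to whole Mb from general knowledge and not read from an annotation. The left region, 4 to 7 Mb, had 39.7 peaks per Mb and the right region, 13 to 17 Mb, had 22.5, against 41.1 in the other 10 whole stretches. In replicate 1 the values were 12.3, 8.50 and 11.3 per Mb. Single stretches held 33 to 49 peaks in the left region, 12 to 36 in the right region and 26 to 62 elsewhere, and these ranges overlapped. The right region includes the sparse stretches from 14 to 17 Mb described above, with 26, 16 and 12 peaks. A low density of the region and the thinning towards the right end therefore cannot be told apart here.

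Long stretches without a peak occurred in all 3 parts. The distance from the end of one peak to the start of the next had a median of 13 kb (quartiles 3.03 and 33.6 kb). On the other autosomes the median was 8840 bp on I, 20645 bp on II, 12128 bp on III and 14692.5 bp on V. Their longest distances were 306280, 586604, 200546 and 418795 bp in that order, so those of IV were not unusual. Counts over 100 kb are not given here for the other chromosomes. Of the 33 distances over 100 kb, 15 were in the right part, 11 in the left and 7 in the centre, and of the 10 longest, 8 were on the right, 1 on the left and 1 in the centre. The longest ran from 15849991 to 16167447 (317 kb), the next from 4821277 to 5063463 (242 kb) and the third from 15039946 to 15275843 (236 kb). Neither replicate had a peak inside any of these, but this adds no evidence. Every replicate 1 peak on IV overlapped a combined peak, and the replicate 2 list is nearly the combined one.

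The strongest sites of IV ranked from 31 downwards among the 3467 combined peaks. None of the 20 strongest combined peaks was on IV (0%, Wilson upper bound 16.1%), and none of the 20 strongest of replicate 1. Of those 20 combined peaks X held 13, II held 3, I and V held 2 each and III held none either. IV held 4 of the 50 strongest (8%), 13 of the 100 strongest (13%, 7.76 to 21%) and 81 of the 500 strongest (16.2%). Its 13 of the 100 strongest stood beside 16 on I, 13 on II, 14 each on III and V and 30 on X. In replicate 1 it held 15 of the 100 strongest (15%) and 100 of the 500 strongest (20%). The median −log10 q on IV, 6.21, lay between those of V (6.03) and II (6.43), with III at 6.5 and I at 7.20.

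The strongest IV peak, at IV:14032527-14034858, spanned 2332 bp and took rank 31 in the combined list, at a strength of 76.0. It was also the strongest IV peak of each replicate, with 34.0 in replicate 1 (rank 21) and 76.6 in replicate 2 (rank 31). It lies in a stretch where the combined and replicate 2 lists differ, and its edges differed by 3 and 15 bp between them. The second, at IV:291454-296637, was the widest peak of the chromosome at 5184 bp, and its −log10 q was 73.3. Replicate 1 split it into a stronger left part from 291796 to 293556 (−log10 q 20.8) and a weaker right part from 294038 to 295310 (6.23). A further peak of 427 bp began 223 bp to its right, at 296861, with a −log10 q of 15.8.

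Next came IV:2601908-2604705, 2798 bp wide, with 63.8 in replicate 2 and 20.95 in replicate 1. The fourth, IV:11913101-11916331, was 3231 bp wide and showed the largest ratio between the replicates among the 20 strongest. Its −log10 q was 58.8 in replicate 2, whereas replicate 1 had 2 separate peaks there with 11.1 and 9.38. Ranks 5 to 8 on the chromosome were compact sites, in contrast to these wide ones.

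These compact and strong sites were IV:3988611-3989093, IV:3899808-3900233, IV:13919167-13919575 and IV:4749848-4750310. Their widths were 483, 426, 409 and 463 bp, near the median of the chromosome, and their −log10 q values in replicate 2 were 55.8, 54.2, 48.4 and 46.5. In replicate 1 they reached 23.6, 18.4, 21.7 and 21.9, which placed the first at rank 2, the fourth at rank 3, the third at rank 4 and the second at rank 8 of its IV peaks. Another compact site, IV:13240383-13240827, was 445 bp wide with 32.0 in replicate 2 and 16 in replicate 1. A strong q-value on IV thus did not require a wide region.

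The next sites were again mixed in width. IV:17277493-17281694, at 4202 bp the second widest, had a −log10 q of 45.1 in replicate 2 and 16.9 in replicate 1, where the called region was only 911 bp wide. IV:654686-655429 had 43.6 and 21.3, IV:10934783-10937187 had 43.4 and 16.8, IV:8527349-8528760 had 40.9 and 13.9, and IV:8431531-8433211 had 39.2 and 16.7, each value for replicate 2 followed by that for replicate 1. The remaining 6 of the 20 strongest began at 14593859, 12032090, 14610401, 6336578, 5753220 and 17249637, with combined −log10 q between 31.7 and 29.4. The peak ranked 21 on IV had 29.4 as well, so the number 20 marks no step in strength.

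As a group, the 20 strongest sites were found in replicate 1 and were spread over the chromosome. Most of them are identical entries of the replicate 2 list, so their presence in replicate 2 is no separate support. Replicate 1 overlapped all 20, and 16 of them were among its own 20 strongest IV peaks. The exceptions had replicate 1 ranks on IV of 21, 24, 32 and 49, the last being IV:14610401-14613628, which replicate 1 split in 2. By position 7 lay in the left part, 4 in the centre and 9 in the right part, but this order depended on the number taken. Of the 13 IV peaks among the 100 strongest of the genome, 6 were on the left, 3 in the centre and 4 on the right, and of the 15 in replicate 1 it was 7, 3 and 5. The median width of the 20 was 1123 bp, from 409 to 5184 bp, and 12 were 800 bp or wider. Midpoints of neighbours among the 20 were a median of 0.679 Mb apart, and 4 neighbouring pairs were closer than 100 kb. The closest pair, the peaks starting at 14593859 and 14610401, was 17.7 kb apart, and the pair starting at 17249637 and 17277493 was 29.7 kb apart.

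The median IV peak spanned 406.5 bp in the combined list (quartiles 314 and 599 bp) and 434 bp in replicate 1 (354 and 700 bp). Of the 634 peaks, 90 (14.2%) were 800 bp or wider, against 16.2% of all combined peaks. A width of 2000 bp or more was reached by 9, a count for which no share over all chromosomes is given here. The 5 widest all belonged to the 20 strongest. The fourth widest, IV:14610401-14613628, was 3228 bp wide, with 30.7 in replicate 2 and parts of 8.38 and 7.81 in replicate 1.

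At the other extreme, 30 peaks (4.73%, background 4.53%) were narrower than 200 bp, and 3 of these were under 30 bp. The narrowest, at IV:7915340-7915340, was a single base, with a −log10 q of 3.61. None of the 30 was overlapped by replicate 1 (0%, Wilson upper bound 11.4%), and their median −log10 q was 3.88. The strongest of them ranked 1960 in the whole list. IV peaks of any width in strength groups 6 to 10 (described below) had 2.63% support or less, so the 0% is no result about width. Over all IV peaks, width and strength had a Spearman coefficient of 0.56 in the combined list and 0.39 in replicate 1, as a description over peaks of one list.

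**Figure D3:**
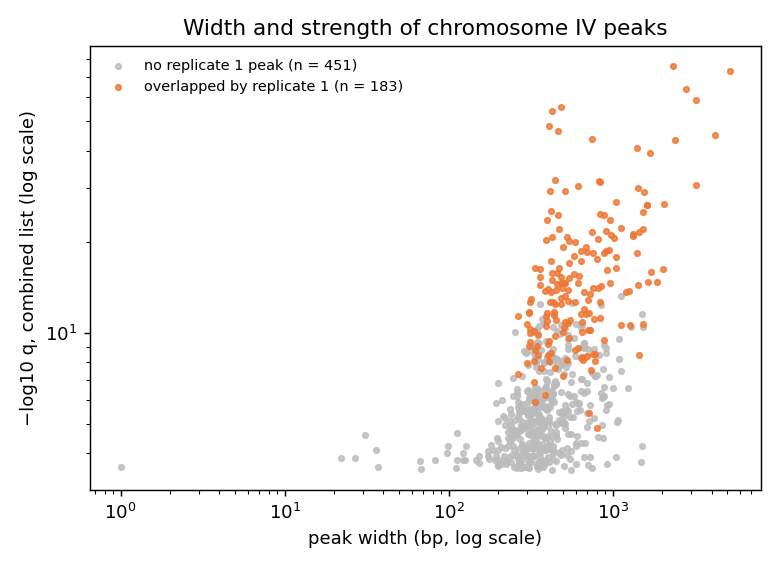
Strength as −log10 q in the combined list (vertical axis, log scale) against width in bp (horizontal axis, log scale) for the 634 peaks of chromosome IV. Orange points are the 183 peaks overlapped by replicate 1 and grey points the 451 others. The grey points reach a −log10 q of 13.2 and the orange ones go down to 4.86, and a few strong orange points stand near 400 to 500 bp.

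Replicate 1 supported 183 of the 634 peaks (28.9%, Wilson interval 25.5 to 32.5%) by an overlap of at least 1 bp, against 25.7% of all combined peaks. Of the other autosomes, III had 29.3% (25.6 to 33.2%), V 26.3% (22.9 to 29.9%), II 24.5% (20.6 to 28.9%) and I 14.9% (12.4 to 17.8%). The interval for IV overlapped those for II, III and V and lay above that for I. The 183 peaks matched 189 replicate 1 peaks, since 6 combined peaks each covered 2 of them. Supported peaks were wider, with a median of 586 bp against 359 bp, and stronger, with a median −log10 q of 14.1 against 5.17.

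Support on IV followed strength closely. Every one of the 102 strongest IV peaks was overlapped, and the first without an overlap ranked 604 in the whole list. The corresponding number of peaks before the first without support was 77 on V, 52 on III, 45 on I and 25 on II. The combined list was also cut by rank into 10 equal groups, numbered from the strongest. In group 1 all 58 IV peaks were supported (100%, lower bound 93.8%), in group 2 it was 56 of 60 (93.3%, 84.1 to 97.4%) and in group 3 it was 38 of 64 (59.4%, 47.1 to 70.5%).

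The share was 31.3% in group 4, 13.6% in group 5 and 2.63% in group 6, and none of the 129 IV peaks in groups 9 and 10 was supported. Chromosomes II, III and V together had 98.7%, 81.7% (74.8 to 87.0%) and 58.5% in groups 1 to 3. Their interval in group 2 overlapped that of IV. Such an overlap is no test of the difference, and none was run. The share for I in that group was 44.0% (33.3 to 55.3%), below the interval of IV.

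**Figure D4:**
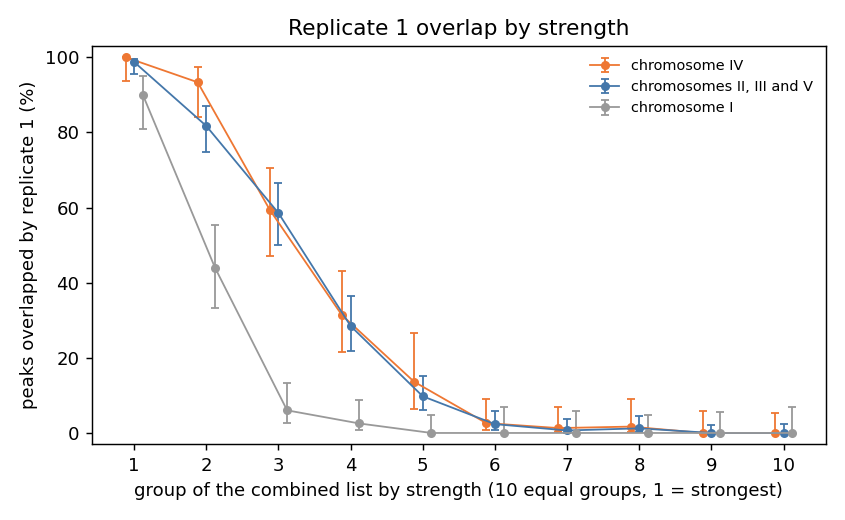
Percentage of combined peaks overlapped by replicate 1 (vertical axis) in each of 10 equal groups of the combined list by strength (horizontal axis, 1 is the strongest), for chromosome IV, for II, III and V together and for I. Bars are 95% Wilson intervals. The points of IV run from 100% to 0% close to those of II, III and V, and above those of I in groups 1 to 8. Chromosome I is at 0% from group 5 on.

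The strongest IV peaks that replicate 1 did not support were of medium rank and ordinary to large width. The first was IV:11821710-11822839, 1130 bp wide, whose −log10 q was 13.2. It was followed by IV:6838954-6839519 (566 bp, 12.5), IV:17171726-17172085 (360 bp, 12.4), IV:5658971-5659823 (853 bp, 12.3) and IV:6554713-6556223 (1511 bp, 11.6). All 5 lay in stretches where the combined and replicate 2 lists are identical, so their presence in replicate 2 with the same edges is no separate support. With unknown depth, a missing overlap says only that no peak was called there in replicate 1.

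Where both replicates had a peak, they kept a similar order. Each of the 189 replicate 1 peaks on IV overlapped a replicate 2 peak, and 170 (89.9%) lay wholly inside it. The share inside was 90.7% on I, 91.3% on II, 87.3% on III and 92.1% on V. The Spearman coefficient of −log10 q over these pairs was 0.80 and the Pearson coefficient of the logarithms 0.83, close to the 0.80 to 0.83 and 0.81 to 0.85 on the other autosomes. By part of IV the Spearman coefficient was 0.70 on the left, 0.80 in the centre and 0.86 on the right, over 65, 70 and 54 pairs. These coefficients describe sites that share their libraries.

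The replicate 2 value was the larger one in all 189 pairs, by a median factor of 2.36 (quartiles 1.93 and 2.70). The factor was 2.27 on V, 2.42 on III, 2.49 on II and 3.66 on I. The replicate 2 peak was also the wider one in 183 pairs (median ratio of widths 1.21), and the midpoints of a pair typically lay 24 bp apart (median). A q-value shrinks with depth as well as with enrichment, so the factor is no ratio of occupancy.

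**Figure D5:**
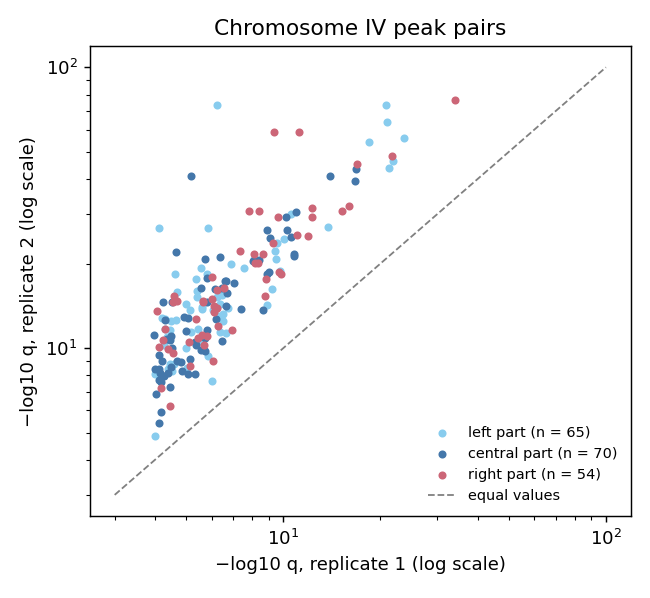
Strength as −log10 q in replicate 2 (vertical axis, log scale) against replicate 1 (horizontal axis, log scale) for the 189 pairs of overlapping peaks on chromosome IV, coloured by part of the chromosome, with a dashed line at equal values. All points lie above the line. Points far above it include the parts of wide replicate 2 peaks that replicate 1 split, such as the peak of 73.3 paired with parts of 20.8 and 6.23.

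Close neighbours made up a modest part of the IV peaks. A neighbour within 1000 bp was found for 115 peaks (18.1%, Wilson interval 15.3 to 21.3%), against 20.8% of all combined peaks. The other autosomes had 18.0% on II, 22.5% on III, 23.4% on I and 23.6% on V. Their intervals overlapped that of IV, which is no test of a difference. The smallest distance between 2 IV peaks was 205 bp in the combined list and in replicate 1. In replicate 1, 30 of the 189 peaks (15.9%, 11.4 to 21.8%) had a neighbour within 1000 bp.

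The 115 peaks formed 52 chains, of which 43 were pairs, 7 had 3 members and 2 had 4. There were 20 chains in the left part, 22 in the centre and 10 in the right part. The share of peaks in chains was highest between 4 and 5 Mb, at 42.9%, and between 9 and 10 Mb, at 40.4%, while no peak between 6 and 7 Mb was in one. Replicate 1 overlapped at least 1 member in 33 of the 52 chains and all members in 10. The same count for chains on the other chromosomes is not given here, so these counts only describe IV. Chained peaks had a median −log10 q of 8.21 and 40% replicate 1 support (31.5 to 49.1%), against 5.96 and 26.4% (22.8 to 30.4%) for the 519 others. They were also wider, with a median of 538 against 380 bp.

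The chains with most members differed in strength. The chain IV:4468090-4473204 had 4 members over 5.12 kb, with −log10 q of 10.6, 18.8, 5.80 and 9.15 from left to right, and replicate 1 had the first and second of them. The chain IV:9525005-9528762 also had 4 members, all weak, with 4.98, 7.32, 3.73 and 6.79, and none in replicate 1. The strongest chain of 3, IV:8527349-8531025, began with the peak of 40.9 named above, went on with one of 8.25 and ended with one of 24.6, and replicate 1 had the outer members. Each of these chains lay within 1 of the 3 fullest stretches of the chromosome.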

How the data were processed

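ChIP-seq peak lists of 2 ChIP replicates and a combined list were analysed. The authors deposited each list with a q-value (an adjusted p-value) per peak. Peaks were called with PeakSeq on WormBase WS180, per the file headers and source column. Not given in the sources used here are the version, aligner, control, threshold, depth and the making of the combined list. The input samples have no values here. Groups came from the titles, since the description fields of ChIP and input samples read as if exchanged. Nothing says whether replicates came from separate cultures.

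The members and lists were chosen with earlier results of these data known. Peaks were ranked by q and placed by midpoint. The end of the outermost peak, in whichever list, closed the span of a chromosome, which was cut into 3 equal parts and into stretches of 1 Mb. Chains joined peaks at most 1000 bp apart. Shares carry 95% Wilson intervals. The rule for named regions took the 20 strongest and 5 widest combined peaks, the 5 strongest without replicate 1, the 3 fullest and 3 emptiest stretches (a tie made 4), 3 chains and 3 gaps. No genome or annotation of WS180 was used here, so genes, motifs and sequences are not reported. Overlap counting was checked on simulated peaks. The tools were matplotlib 3.10.9, pandas 2.3.3, SciPy 1.17.1, NumPy 2.4.6 and Python 3.11.15.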

Additional observations from a re-analysis of the deposited data

How the results depend on the processing

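Of 40 alternative values over 8 results, 28 stayed within the 95% interval of the main value and 12 did not. Without replicate 2, that is with the replicate 1 list, IV had 10.8 peaks per Mb in place of 36.3, 37.0% of them in the central part in place of 42.4%, 28.6% in the right part in place of 24.1%, and a median width of 434 in place of 406.5 bp. Leaving out replicate 1 or replicate 2 gave ranges of 10.8 to 36.3 per Mb, 37.0 to 42.4% in the middle, 24.1 to 28.6% on the right, and 406 to 434 bp. The stronger 50% of the combined list gave 16.8 peaks per Mb, a median width of 523 bp and 61.1% replicate 1 support. Merging peaks within 1000 bp gave 32.7 peaks per Mb, and midpoints within 100 bp gave 24.4% support in place of 28.9%. The share with a close neighbour was 8.68% at 500 bp and 32.6% at 2000 bp, in place of 18.1%. IV held 0% of the 20 strongest peaks in place of 13% of the 100 strongest. Lists with fewer peaks give lower densities by construction. A shorter or longer neighbour distance can only lower or raise the share, and the midpoint rule is stricter than an overlap of 1 bp. In the stronger 50%, the higher support and width restate the relation to strength given above. For the other changes the cause was not tested. The values without replicate 1 come from the list that nearly equals the combined one, so they test little. No paired analysis was possible because values exist here for ChIP samples alone, and the inputs numbered alike have none. The motif search was not run, since no genome of WS180 was used here. Unknown depth limits a missing overlap to non-detection.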
